A study of Rattus norvegicus with 33 samples.

Results

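The genes described here are 38 fibroblast and extracellular matrix genes of the rat prostate, taken by name from the annotation of a single-colour expression array. Every non-control probe whose gene name equalled one of the 38 was collected, and the brightest probe stood for its gene. All 38 had a probe, and all 38 were among the 23172 genes bright enough to be tested, of 34912 gene names on the array. The measurements came from 33 prostates of male Sprague-Dawley rats, 1 array each. Pups were injected under the skin with estradiol benzoate (EB), a long-acting ester of estradiol, at 2.5 mg/kg on postnatal days (PND) 1, 3 and 5, or with vehicle. On PND 90 some rats received 2 implanted tubes of testosterone and 1 tube of estradiol (T+E), and the other adults received 3 empty tubes. The study asked how estrogen exposure of the newborn and hormone treatment of the adult, alone or together, changed prostate gene expression.

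There were 10 groups. At PND 30, before any implant, there were 4 EB prostates and 4 vehicle controls. At PND 100, 10 days after implantation, there were 3 prostates each of EB+T+E, T+E, EB and control rats. At PND 145, 55 days after implantation, there were 3 EB+T+E, 3 T+E, 4 EB and 3 control prostates. Sample labels call the tissue whole prostate and the series is titled for the dorsolateral lobes, so the dissected lobes are not settled by the sources used here. All controls carried the vehicle injections, and the adult controls carried the empty tubes as well.

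The prostatic stroma is built mainly by fibroblasts and smooth muscle cells around the glandular ducts. Fibroblasts secrete fibrillar collagens, which assemble into fibres with the help of small proteoglycans and are then joined by lysyl oxidases. Adhesive and elastic glycoproteins connect that network to cells, metalloproteinases cut it, and tissue inhibitors of metalloproteinases (TIMPs) restrain the cutting. The matrix of a growing or inflamed gland differs from that of a resting adult gland, and matricellular proteins such as periostin are known for appearing in remodelling tissue.

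The 38 genes were grouped by role. They comprised 5 fibrillar collagen genes, 6 other collagen genes, 4 proteoglycan genes, 3 lysyl oxidase genes, 5 genes of elastic fibres and adhesive glycoproteins, 5 matricellular genes, 4 protease genes, 3 TIMP genes and 3 fibroblast surface protein genes. A level is the log2 of the background-subtracted probe signal minus the log2 of that array's 75th percentile, so that 0 is the 75th percentile of the array. Levels of different probes have no common scale, and only levels of the same gene were compared. A difference between groups is a log2 ratio with its standard error (SE) from a limma fit over all 33 arrays, and a gene was called where its Benjamini-Hochberg adjusted p over the 23172 genes was below 0.05. Counts of the 38 at an unadjusted p below 0.05 are given without the share of all genes below it, so they cannot be set against that share. Counts with an array left out, or under another fit, are given without the share of all genes called in that setting. They cannot be set against that share either. In whole tissue, fewer cells of a type and less RNA per cell cannot be told apart.

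The 3 genes on which most of the results turned were Postn, Col3a1 and Timp1, and the array probes that measured them are shown so that the measured stretch of each transcript can be found. Postn encodes periostin, Col3a1 the chain of type III collagen, and Timp1 a secreted metalloproteinase inhibitor. The file annotation places the Postn probe on chr2:143560792-143561828 (plus strand, rn4), a span longer than its own length that crosses an exon junction. The Col3a1 probe lies on chr9:44317465-44317524 (plus strand, rn4) and the Timp1 probe on chrX:12542700-12543703 (minus strand, rn4), which again spans a junction. The probe letters are given as the files give them.
Postn probe: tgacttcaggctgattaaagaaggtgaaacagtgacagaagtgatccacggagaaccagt
Col3a1 probe: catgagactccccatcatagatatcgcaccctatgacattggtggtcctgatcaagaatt
Timp1 probe: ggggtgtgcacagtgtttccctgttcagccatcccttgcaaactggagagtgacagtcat

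Promoters are shown for Postn and Timp1, which were the 2 genes called between EB+T+E and T+E prostates at PND 100. RefSeq promoters (GRCr8, 250 bases before to 50 after the transcript start) were matched for 21 of the 38 genes, giving 22 promoters. The Postn promoter, at chr2:140677811-140678110 on the plus strand, holds the TATA motif TATAAA (capitals) beginning 44 bases before the start. The Timp1 promoter, at chrX:3771073-3771372 on the minus strand, has no TATAAA and holds a GC box 142 bases before the start, read on the opposite strand as CCGCCC (capitals).
Postn promoter: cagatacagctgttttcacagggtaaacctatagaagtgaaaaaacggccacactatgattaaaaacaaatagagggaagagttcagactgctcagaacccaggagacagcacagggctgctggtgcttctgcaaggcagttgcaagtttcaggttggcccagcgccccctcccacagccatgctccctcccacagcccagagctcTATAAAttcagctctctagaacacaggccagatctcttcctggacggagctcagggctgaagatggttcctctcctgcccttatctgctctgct
Timp1 promoter: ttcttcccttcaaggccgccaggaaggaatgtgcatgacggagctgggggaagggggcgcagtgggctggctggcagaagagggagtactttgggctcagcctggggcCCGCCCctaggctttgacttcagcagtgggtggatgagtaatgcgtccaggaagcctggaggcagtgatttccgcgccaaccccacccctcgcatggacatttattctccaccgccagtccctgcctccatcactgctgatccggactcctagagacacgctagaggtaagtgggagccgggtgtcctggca

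Each motif was searched on both strands. TATAAA occurred in 4 of the 22 promoters (18.2%), those of Col1a2, Mmp3, Postn and Tnc, against 14.2% of all 33469 promoters in the table. The GC box GGGCGG occurred in 10 (45.5% against 33.1%), counting both overlapping promoters of Vcan, which share the same GC box. The AP-1 motif TGANTCA occurred in 3, those of Col6a1, Mmp3 and Pdgfra (13.6% against 7.33%). CCAAT occurred in 7 (31.8% against 37.5%) and the SMAD motif CAGACA in 5 (22.7% against 21.1%). These shares describe letters in a window and nothing about binding.

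The arrays differed in overall brightness, and their 75th percentiles ran from 1694 to 4737 units. At PND 30 they were 3862 to 4737 except in control replicate 2 (2312), against 2360 to 2799 in controls at PND 100 and PND 145. Between 61.5% and 68.9% of spots were well above background on each array, and no spot was saturated. Of the 38 genes, 35 were well above background on all 33 arrays, among them the fibroblast markers Pdgfra, Dcn, Lum, Col1a1 and Thy1. The exceptions were Thbs1, Tnc and Mmp3. The lowest correlation between 2 arrays of a group was 0.864 among EB+T+E prostates at PND 100 and 0.911 among EB prostates at PND 100, against 0.937 to 0.967 in the other groups. EB+T+E replicate 3 and EB replicate 3 at PND 100 stood apart in many of the 38 genes, and the counts of called genes for comparisons of those groups are also given without them. EB+T+E replicate 3 was the dimmest array of its group (1932, against 3245 and 2957) and had its lowest 38-gene median (-0.67). EB replicate 3 was the brightest of its group (4454, against 2583 and 3040) and had its highest median (1.50). Among controls at PND 100, the brightest array, replicate 3 (2799), had the lowest median (-1.26). The part of array brightness in the results was not tested. Over all genes tested, the median log2 ratio of a comparison lay beyond 0.1 in the comparisons of EB+T+E at PND 145 with controls (-0.24), EB (-0.22) and T+E (-0.16), in EB against control at PND 30 (-0.14), in the PND 145 interaction (-0.15) and in EB prostates at PND 100 against PND 30 (0.14).

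The level of most of the 38 genes was lowest in the oldest control prostates. Of the 38, 31 had their lowest group mean in controls at PND 145, 6 in EB prostates at PND 145 and 1 in controls at PND 100. The highest mean was in EB prostates at PND 30 for 13 genes, in EB+T+E prostates at PND 145 for 10, in EB+T+E at PND 100 for 7, in EB at PND 100 for 5 and in controls at PND 30 for 3. Fibrillar collagens, Sparc and Postn were among the genes highest at PND 30, whereas Fn1, Col6a1, Col6a2, Bgn, Loxl1, Thbs1, Thbs2, Mmp2, Mmp3 and Timp2 were highest in EB+T+E prostates at PND 145. The range between the highest and the lowest group mean was 5.67 for Postn, 4.36 for Timp1, 4.16 for Col3a1 and 4.08 for Col5a2. It was 1.41 for Dcn and 1.44 for Timp3.

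**Figure D1:**
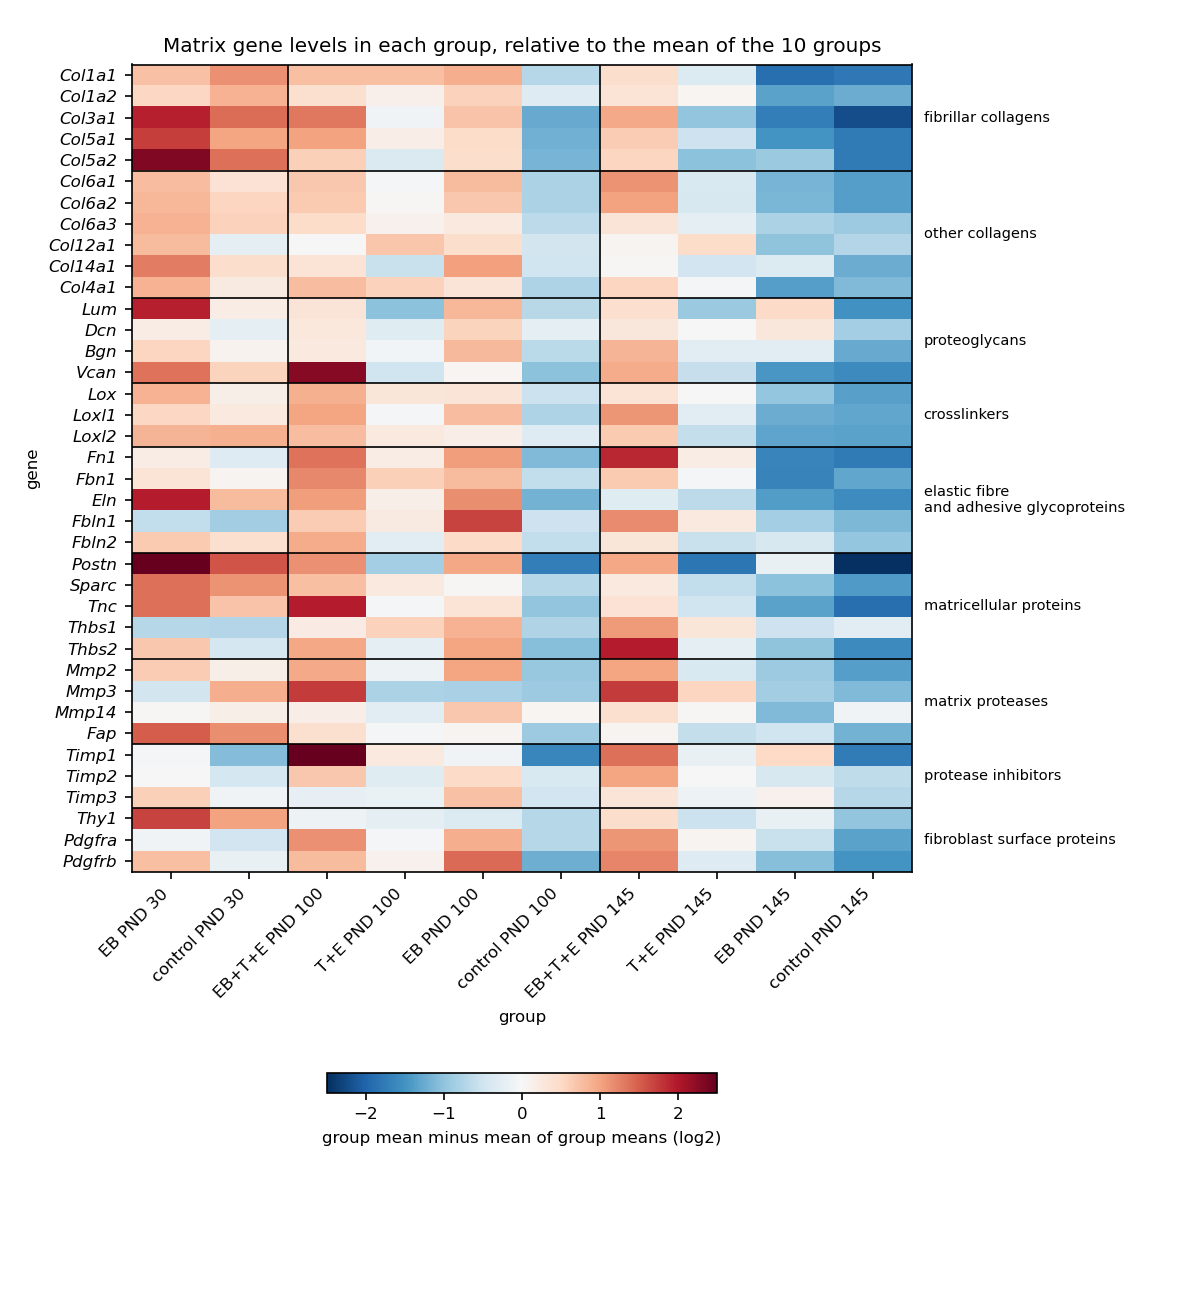
Group mean level of each of the 38 genes minus the mean of its 10 group means (log2, colour scale limited at both ends), with genes grouped by role in rows and treatment groups by age in columns. Most rows are lowest in controls at PND 145 and high at PND 30 or in EB+T+E prostates.

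Fibre-forming genes were lower in older than in younger control prostates. In controls at PND 100 against PND 30, 8 of the 38 genes fell and 0 rose, with 2.26% of all tested genes called and 1.48% called lower. Postn had levels of -4.09, -4.08 and -4.11 in controls at PND 100, against -0.57, -0.98, -0.77 and -0.79 at PND 30. Col3a1 had levels of 1.31, 1.73 and 0.88 at PND 100, against 4.10, 3.84, 3.87 and 4.05 at PND 30. Neither gene's groups overlapped, and the 3 older Postn values were nearly equal. The log2 ratio was -3.32 ± 0.54 for Postn (limma adjusted p = 0.000426) and -2.66 ± 0.49 for Col3a1 (adjusted p = 0.00167).

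The other genes that fell between these ages were Col5a2 and Col5a1, which encode chains of the type V collagen that starts fibrils, Col1a1 of type I collagen, Eln (elastin), Sparc, a collagen-binding matricellular protein, and Fap, a membrane-bound protease of activated fibroblasts. Sparc fell by 1.83 ± 0.30 on the log2 scale (limma adjusted p = 0.000454) and Fap by 2.07 ± 0.32 (adjusted p = 0.000256). Of the 38 genes, 21 had all 3 controls at PND 100 below all 4 at PND 30, as did 12.3% of all genes. The median log2 ratio of the 38 genes was -1.03, and within the 3 slides that held both ages it was -1.71, -1.09 and -0.26. Leaving out any 1 array left 5 or 6 genes called, 5 of them without control replicate 3 at PND 100. The Col5a1 call was lost in 7 of 7 such removals, the Eln call in 6 and the Col1a1 call in 2. With only the controls of these 2 ages in the fit 17 were. All 9 genes of the list of dividing cells also fell, with a summed level (log2 of the sum of the genes' scaled signals) between -1.35 and -0.30 at PND 100, against 2.14 to 2.87 at PND 30, and their part in the result was not tested. From PND 100 to PND 145 in controls limma called 0 of the 38 genes and 0% of all genes. The median log2 ratio was -0.57 and 4 members had an unadjusted p below 0.05.

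EB alone raised no gene of the 38 past the threshold at PND 30, with 0.0475% of all genes called by limma and 6 of the 38 at an unadjusted p below 0.05. The log2 ratio of EB over control was positive for 33 of 38 genes, with a median of 0.47. Lum encodes lumican, a small proteoglycan that spaces collagen fibrils. It had levels of -0.35, 1.08, 1.14 and 0.24 in EB prostates, against -0.44, -3.39, -0.68 and -0.36 in controls. All EB values were above all control values, and control replicate 2 lay far below the rest. For Postn the levels were 0.18, 0.45, 0.91 and 0.21 in EB prostates, against -0.57, -0.98, -0.77 and -0.79 in controls, without overlap and with an adjusted p of 0.331 (limma). In 11 of the 38 genes every EB array was above every control array, as in 1.89% of all genes. The median of the 38 log2 ratios was 0.14, 0.86, 0.46 and 0.63 within the 4 slides. Summed levels of some cell lists also lay apart. They were 2.18 to 2.86 in EB prostates, against 1.81 to 2.16 in controls, for endothelium. For basal epithelium they were 3.31 to 3.98 against 4.025 to 4.995. For seminal vesicle genes they were 4.88 to 6.13 against 6.325 to 6.93. Luminal and macrophage levels overlapped. The part of these cells in the result was not tested.

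At PND 100, 6 of the 38 genes rose in EB prostates relative to controls and 0 fell, with 2.7% of all genes called and 1.81% called higher. They were Postn, Col3a1, Mmp2 (gelatinase A), Eln, Fbln1 (fibulin-1, a glycoprotein of elastic fibres) and Pdgfrb, a receptor for platelet-derived growth factor on fibroblasts and pericytes. Mmp2 had levels of 1.47, 1.60 and 2.45 in EB prostates, against 0.02, 0.41 and -0.70 in controls. Fbln1 had levels of 0.79, 2.07 and 2.88 in EB prostates, against -0.17, 0.57 and -1.29 in controls. The groups did not overlap for either gene, and EB replicate 3 was the highest in both. Periostin (Postn) had levels of -1.48, -3.18 and 0.51 in EB prostates, a wide spread, against -4.09, -4.08 and -4.11 in controls.

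In that comparison the limma log2 ratio was 1.93 ± 0.40 for Mmp2 (adjusted p = 0.0189), 2.71 ± 0.58 for Postn (0.0209) and 2.36 ± 0.56 for Eln (0.0306). It was 2.64 ± 0.65 for Pdgfrb (adjusted p = 0.0355), 2.21 ± 0.56 for Fbln1 (0.0374) and 1.97 ± 0.53 for Col3a1 (0.0434). All 38 log2 ratios were positive, with a median of 1.49, and 25 of the 38 genes had non-overlapping groups against 11.5% of all genes. No proteoglycan, lysyl oxidase or TIMP gene was called. Bgn (biglycan) stood at 1.50 ± 0.47 (adjusted p = 0.0707), Loxl1 at 1.55 ± 0.51 (0.0806) and Timp3 at 1.22 ± 0.41 (0.0859). The median over the 38 genes was 1.40 and 2.38 within the 2 slides that held both groups.

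The 6 calls rested on few arrays. No gene was called without EB replicate 3, without control replicate 1 or without control replicate 3, whereas 11 were called without EB replicate 1. With only these 6 arrays in the fit, limma called 0 of the 38. The macrophage list moved with this group. Of its 11 genes 6 rose, and its summed level lay between 5.41 and 5.91 in EB prostates, against 3.47 to 3.77 in controls. Of 11 T and natural killer cell genes 5 rose, and of 8 B and plasma cell genes 3 rose, with a summed B and plasma cell level of up to 4.64 in EB replicate 3. The summed level of the luminal epithelial list lay between 5.21 and 6.33 in EB prostates, against 6.71 to 6.82 in controls, with 0 of its 10 genes called. The part of these cells in the result was not tested.

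By PND 145 the EB difference was called for Postn alone, with 0.574% of all genes called and 0.194% called higher. Postn had levels of -3.21, -2.06, -2.46 and -2.47 in EB prostates, against -4.51, -5.85 and -5.33 in controls. The groups were well separated, and the ratio was 6.42-fold (log2 2.68 ± 0.54, limma adjusted p = 0.0218). The call was lost without control replicate 2 and without EB replicate 2, 3 or 4, 2 genes were called without control replicate 3 or without EB replicate 1, and normexp background correction, the slide as a block and a fit of only these 7 arrays each called none. Timp1 had levels of 1.49, 1.38, 2.79 and 1.17 in EB prostates, against -0.61, -1.08 and 0.07 in controls, with a log2 ratio of 2.24 ± 0.55 and an adjusted p of 0.0617. Dcn encodes decorin, a small collagen-binding proteoglycan. Its levels were 3.01, 3.96, 3.37 and 3.74 in EB prostates, against 2.84, 2.20 and 2.08 in controls, without overlap (log2 ratio 1.14 ± 0.29, adjusted p = 0.065).

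Of 9 spermatid genes, 8 were called lower in EB than in control prostates at PND 145, with 0.38% of all genes called lower. Their summed level lay between -5.08 and -2.72 in EB prostates, against -1.54 to 6.14 in controls, with the highest value in control replicate 2. Controls at PND 100 lay between -4.42 and -3.43 and T+E prostates at PND 145 between -4.87 and -3.38. The unusual spermatid level was thus that of the PND 145 controls. No gene of the immune or luminal lists was called, but summed levels lay apart for B and plasma cells (-2.66 to -1.81 in EB prostates, against -3.89 to -3.59 in controls), T and natural killer cells (-0.30 to 0.17 in EB prostates, against -1.11 to -0.46 in controls) and luminal epithelium (6.28 to 6.72 in EB prostates, against 6.79 to 6.98 in controls). Macrophage levels overlapped, at 3.85 to 6.32 in EB prostates, against 3.1 to 3.98 in controls. The part of these cells in the Postn result was not tested. The role classes had unequal medians at this age. The median log2 ratio of EB over control was 1.07 for the 4 proteoglycan genes and 0.33 for all 38, of which 31 were positive. All EB values were above all control values in 8 genes, as in 8.83% of all genes, and below them in 1, as in 10.4%. That gene was Mmp14, a membrane-anchored metalloproteinase that activates Mmp2, with levels of -0.21, 0.43, -1.08 and -0.01 in EB prostates, against 0.43, 0.98 and 0.98 in controls (log2 ratio -1.02 ± 0.47, limma adjusted p = 0.309). Within the 2 slides that held both groups the median was 1.09 and 0.08. The change of the EB difference between ages was itself not called for any of the 38 genes. Neither change gave a call with any 1 array left out, EB replicate 3 at PND 100 included. EB at PND 100 minus PND 30 gave 0 calls and 3 unadjusted p below 0.05 (limma, 0.0216% of all genes called), and PND 145 minus PND 100 gave 0 and 9 (0% of all genes called).

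T+E given to vehicle-injected rats led to 0 calls among the 38 genes at either adult age. At PND 100 limma called 0.181% of all genes, the median log2 ratio of T+E over control was 0.81, 34 of 38 were positive and 12 had an unadjusted p below 0.05. At PND 145 it called 0.384% of all genes, the median was 1.01, 38 of 38 were positive and 14 had an unadjusted p below 0.05. Col1a1 had levels of 3.31, 3.40 and 2.77 in T+E prostates at PND 100, against 1.98, 2.30 and 0.82 in controls. At PND 145 it had 1.70, 2.79 and 1.75 in T+E prostates, against 0.23, 0.44 and 1.22 in controls. The groups did not overlap at either age, but the adjusted p was 0.214 at PND 100 and 0.191 at PND 145. The median of the 38 ratios within single slides ran from -0.001 to 1.15 at PND 100 and from 0.515 to 1.78 at PND 145. Some summed cell list levels also lay apart at PND 100. They were 4.20 to 5.08 in T+E prostates, against 3.47 to 3.77 in controls, for macrophages, and 2.11 to 2.35 against 1.51 to 2.02 for endothelium. For basal epithelium they were 2.73 to 2.95 against 3.22 to 4.10. T and natural killer cell levels lay apart at both ages. They were -0.29 to 0.11 in T+E prostates, against -0.82 to -0.36 in controls, at PND 100. At PND 145 they were -0.215 to 0.79 in T+E prostates, against -1.11 to -0.46 in controls. Spermatid levels also lay apart at PND 145, at -4.87 to -3.38 in T+E prostates, against -1.54 to 6.14 in controls. Luminal levels overlapped at PND 100, and macrophage levels overlapped at PND 145. The part of these cells in the result was not tested.

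EB followed by T+E was the treatment with the most called matrix genes against controls. At PND 100, 19 of the 38 genes rose in EB+T+E prostates and 0 fell, with 12.6% of all genes called and 5.4% called higher. By role these were 4 of 5 fibrillar collagens, 0 of 6 other collagens, 1 of 4 proteoglycans, 1 of 3 lysyl oxidases, 4 of 5 elastic and adhesive glycoproteins, 4 of 5 matricellular genes, 2 of 4 proteases, 1 of 3 TIMPs and 2 of 3 surface proteins. Timp1 had levels of 5.45, 2.98 and 3.03 in EB+T+E prostates, against -0.71, -0.67 and 0.14 in controls. The groups were far apart, and the ratio was 18.8-fold (log2 4.24 ± 0.59, limma adjusted p = 0.000563).

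Col3a1 showed the spread that ran through this group, with levels of 5.59, 4.06 and 1.99 in EB+T+E prostates, against 1.31, 1.73 and 0.88 in controls (5.95-fold, log2 2.57 ± 0.53, limma adjusted p = 0.00301). Postn was tighter, with -0.76, -1.35 and -1.51 in EB+T+E prostates, against -4.09, -4.08 and -4.11 in controls (log2 2.88 ± 0.58, adjusted p = 0.00263). Vcan encodes versican, a large hyaluronan-binding proteoglycan, and had levels of 2.01, -0.97 and -3.57 in EB+T+E prostates, against -3.93, -3.78 and -4.75 in controls (log2 3.31 ± 0.82, adjusted p = 0.00984). EB+T+E replicate 3 was the lowest of its group for Col3a1, Postn and Vcan, but stayed above every control. Fn1 (fibronectin) gave 2.46 ± 0.62 (adjusted p = 0.011) and Mmp2 1.91 ± 0.40 (0.00347). Loxl1 gave 1.76 ± 0.51 (adjusted p = 0.0244) and Pdgfrb 2.01 ± 0.65 (0.0427). Tnc (tenascin-C) gave 2.94 ± 0.94 (adjusted p = 0.0389) although the groups overlapped, with -0.95, -2.47 and -6.15 in EB+T+E prostates, against -7.14, -5.40 and -5.87 in controls.

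All 38 ratios at PND 100 were positive, with a median of 1.47, and the groups did not overlap for 10 genes, against 11.2% of all genes. Within the 2 slides that held both groups the median was 3.37 and 1.87. The number called was 29 without EB+T+E replicate 3, 11 without EB+T+E replicate 2 and 4 without EB+T+E replicate 1. It was 9 without control replicate 1 and 8 without control replicate 3. With only these 6 arrays in the fit, limma called 0 of the 38.

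**Figure D2:**
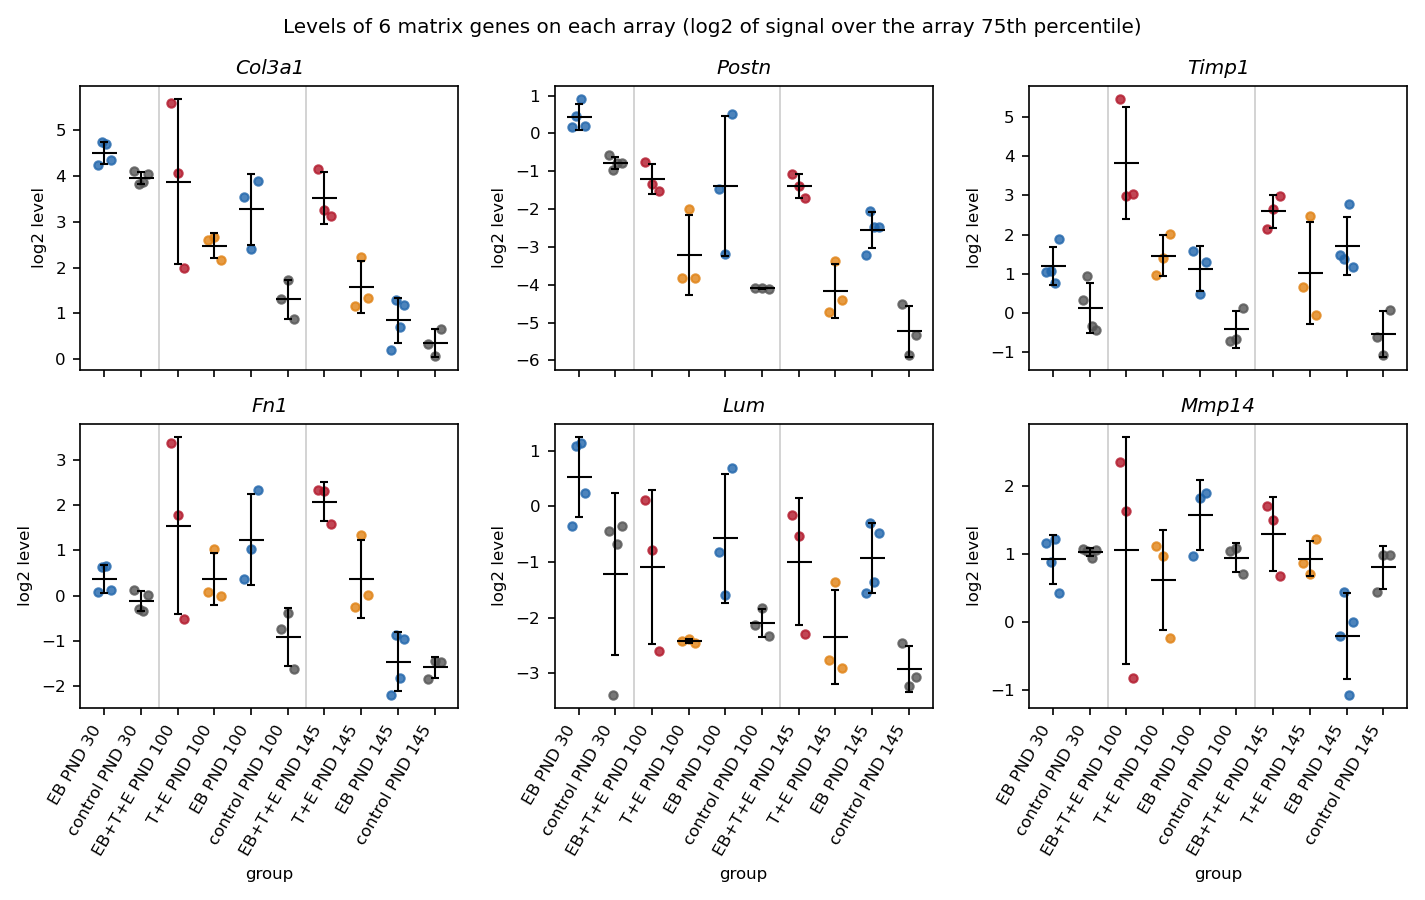
Level (log2, relative to the array's 75th percentile) of Col3a1, Postn, Timp1, Fn1, Lum and Mmp14 on each of the 33 arrays by treatment and age, with points for arrays and bars for the group mean ± SD. Timp1 is highest in EB+T+E prostates at PND 100, where Col3a1 and Fn1 spread over the widest range.

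At PND 145, 29 of the 38 genes rose in EB+T+E prostates relative to controls and 0 fell, with 35.4% of all genes called in either direction and 14.8% called higher. The 29 were 5 of 5 fibrillar collagens, 3 of 6 other collagens, 4 of 4 proteoglycans, 3 of 3 lysyl oxidases, 4 of 5 elastic and adhesive glycoproteins, 3 of 5 matricellular genes, 2 of 4 proteases, 2 of 3 TIMPs and 3 of 3 surface proteins. The median ratio of a class ran from 1.45 for the other collagens to 2.45 for the surface proteins, and was 2.05 for all 38 genes, against -0.24 for all genes tested. All 38 ratios were positive. In 37 of the 38 every EB+T+E array was above every control array, as in 20.7% of all genes. The exception was Mmp14, with 1.71, 1.50 and 0.66 in EB+T+E prostates, against 0.43, 0.98 and 0.98 in controls (log2 ratio 0.49 ± 0.51, limma adjusted p = 0.471).

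Among the fibre genes, Col3a1 had levels of 4.17, 3.26 and 3.12 in EB+T+E prostates at PND 145, against 0.32, 0.06 and 0.66 in controls (8.97-fold, log2 3.17 ± 0.53, limma adjusted p = 7.37e-05). Col6a1, a chain of the microfibril-forming type VI collagen, had levels of 1.59, 1.52 and 0.78 in EB+T+E prostates, against -1.32, -1.12 and -1.17 in controls (log2 2.50 ± 0.57, adjusted p = 0.00167). Both genes left a wide gap between the groups. Loxl1, a lysyl oxidase that acts on elastin, had levels of -1.79, -1.58 and -2.13 in EB+T+E prostates, against -4.33, -4.15 and -4.26 in controls (log2 2.41 ± 0.51, adjusted p = 0.000869). Vcan had levels of -1.93, -2.27 and -2.40 in EB+T+E prostates, against -4.18, -5.01 and -4.98 in controls (log2 2.53 ± 0.82, adjusted p = 0.0189).

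The 3 largest ratios at that age were those of Postn, Fn1 and Thbs2. Postn had levels of -1.07, -1.40 and -1.70 in EB+T+E prostates, against -4.51, -5.85 and -5.33 in controls (14.3-fold, log2 3.84 ± 0.58, limma adjusted p = 2.42e-05). Fn1 had levels of 2.34, 2.31 and 1.58 in EB+T+E prostates, against -1.84, -1.44 and -1.47 in controls (12.7-fold, log2 3.66 ± 0.62, adjusted p = 8.75e-05). Thbs2, which encodes the matricellular protein thrombospondin-2, had levels of 0.28, -0.32 and -1.56 in EB+T+E prostates, against -3.72, -4.41 and -4.18 in controls (11.8-fold, log2 3.57 ± 0.66, adjusted p = 0.000234). Every EB+T+E value of these 3 genes was well above the controls. Thbs1 was not well above background on any control array at PND 145. Its mean in EB+T+E prostates was at least 2.48-fold higher by this limit of signal, but the difference was not called (adjusted p = 0.202). That bound compares the brighter group's mean with the dimmest signal well above background on the other group's arrays, and makes no allowance for the spread between arrays.

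Proteases and their inhibitors moved unevenly. Mmp2 had levels of 2.07, 1.94 and 1.55 in EB+T+E prostates at PND 145, against -0.32, -0.82 and -0.40 in controls (5.16-fold, log2 2.37 ± 0.40, limma adjusted p = 8.36e-05). Timp1 had levels of 2.14, 2.66 and 2.98 in EB+T+E prostates, against -0.61, -1.08 and 0.07 in controls (8.76-fold, log2 3.13 ± 0.59, adjusted p = 0.000282). Mmp2 and Timp1 both rose, while the groups overlapped for Mmp14. Mmp3 (stromelysin-1) stood at 2.86 ± 1.28 (adjusted p = 0.083) and Timp3 at 1.03 ± 0.41 (0.0535). Pdgfra had levels of 0.55, 0.68 and 0.49 in EB+T+E prostates, against -1.56, -2.01 and -2.05 in controls, and Pdgfrb gave a log2 ratio of 2.73 ± 0.65 (adjusted p = 0.00248).

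The genes not called at PND 145 were Col6a3, Col12a1, Col14a1, Eln, Tnc, Thbs1, Mmp3, Mmp14 and Timp3. Within the 2 slides that held both groups the median of the 38 ratios was 1.99 and 1.60. Leaving out any 1 array of the comparison left between 22 and 26 genes called. Of the other probes of these genes, 22 passed the brightness filter, and all 22 had the same sign as the probe used, 13 of them belonging to called genes.

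**Figure D3:**
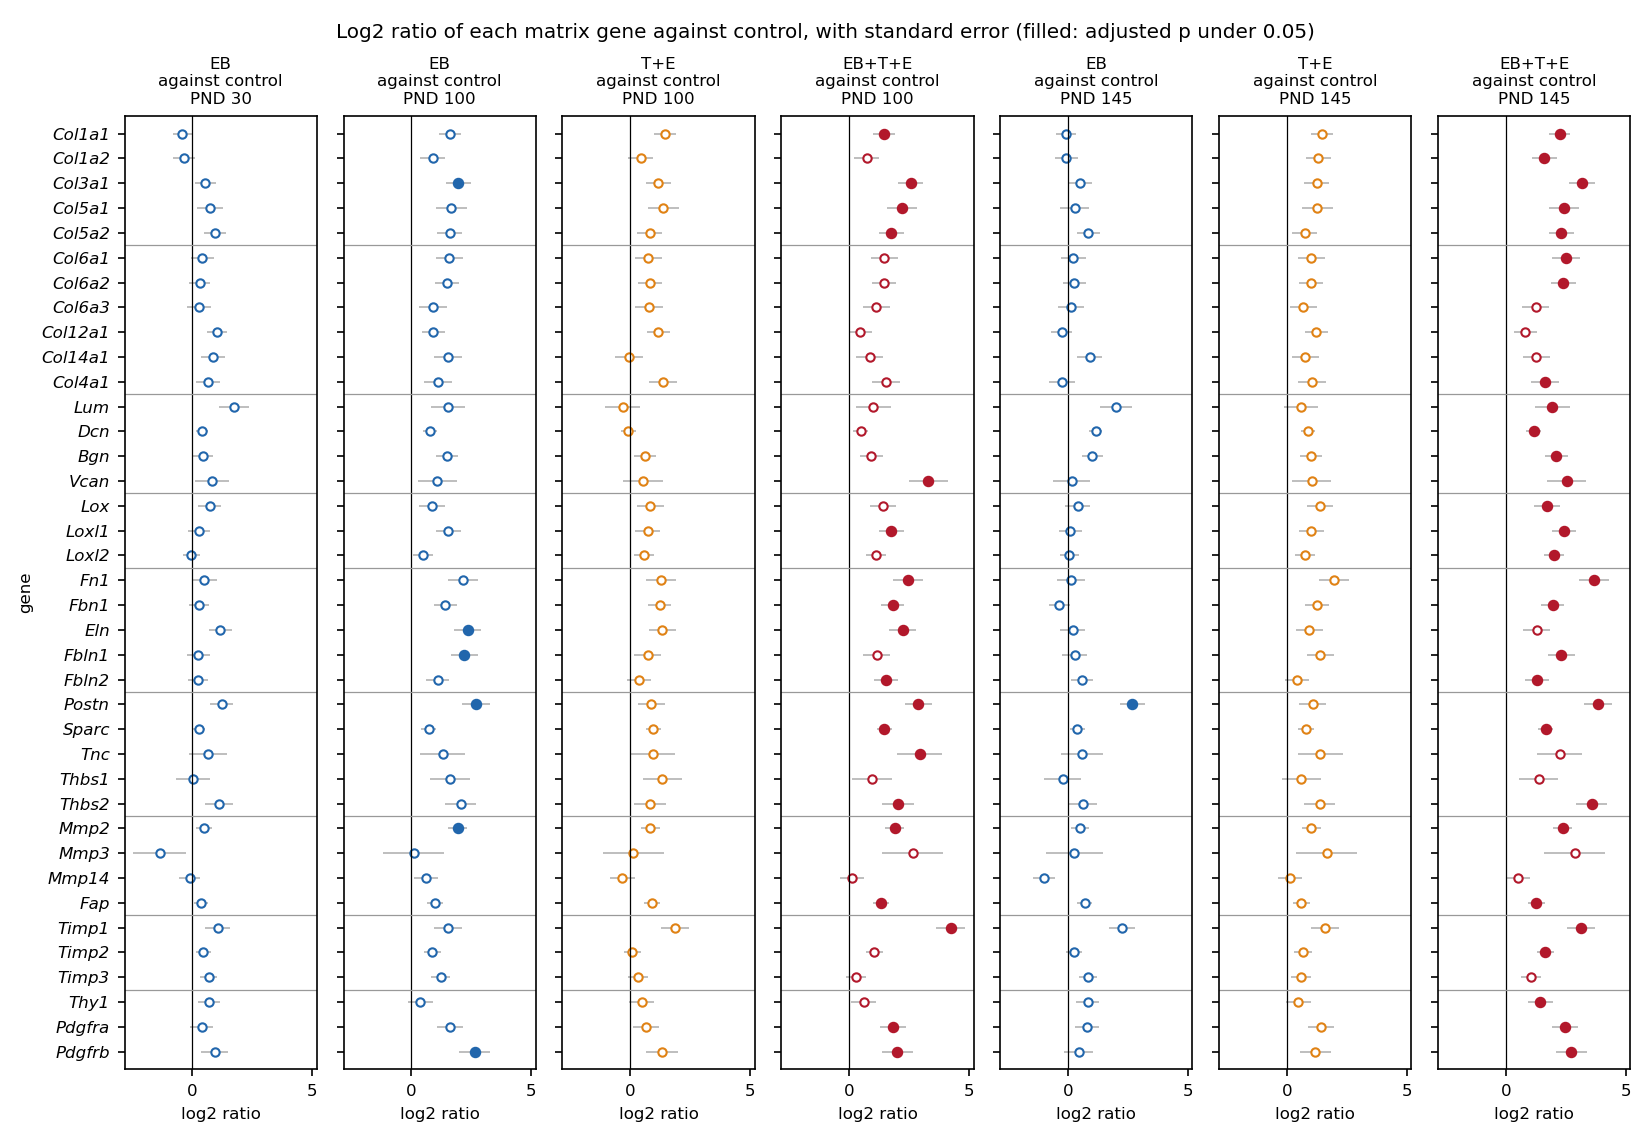
Log2 ratio ± SE of each of the 38 genes in 7 comparisons of a treatment with age-matched controls, with filled points for a limma adjusted p below 0.05. Filled points are most frequent for EB+T+E at PND 145 (29), followed by EB+T+E at PND 100 (19), and all lie to the right of 0.

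The lists of other cell types moved with the EB+T+E groups. The summed level of the macrophage list lay between 5.48 and 6.61 in EB+T+E prostates at PND 100, against 3.47 to 3.77 in controls, and between 6.12 and 6.66 in EB+T+E prostates at PND 145, against 3.1 to 3.98 in controls. Of its 11 genes, 9 rose at PND 100 and 10 at PND 145. The luminal epithelial list lay between 3.66 and 6.43 in EB+T+E prostates at PND 100, against 6.71 to 6.82 in controls, and between 4.88 and 6.24 in EB+T+E prostates at PND 145, against 6.79 to 6.98 in controls. Of its 10 genes, 4 fell at PND 100 and 5 at PND 145.

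Of the 11 T and natural killer cell genes, 3 rose in EB+T+E prostates at PND 100 and 11 at PND 145. Of the 8 B and plasma cell genes, 1 rose at PND 100 and 8 at PND 145. Of 10 genes of smooth muscle, the other main stromal cell type, 3 fell at each age, with 7.22% of all genes called lower at PND 100 and 20.6% at PND 145. Its summed levels overlapped at both ages, at 3.76 to 5.00 in EB+T+E prostates at PND 100, against 4.67 to 5.31 in controls, and 3.86 to 5.26 in EB+T+E prostates at PND 145, against 5.21 to 5.41 in controls. Skeletal muscle genes, of which none was called, had summed levels of 8.35, 7.27 and 1.91 in EB+T+E prostates at PND 100, against 3.53 to 6.02 in controls, and so were low in the same replicate as the matrix genes. None of the 9 spermatid genes was called at PND 100, where their summed level lay between -2.68 and 0.74 in EB+T+E prostates, against -4.42 to -3.43 in controls. At PND 145, 8 of 9 were called lower, with a summed level between -4.10 and -2.73 in EB+T+E prostates, against -1.54 to 6.14 in controls. The controls were again the unusual group, as T+E prostates at PND 145 lay between -4.87 and -3.38. Of the 10 endothelial genes, 4 rose at PND 100 and 7 at PND 145, and of the 9 genes of dividing cells, 9 rose at PND 100 and 5 at PND 145. The part of these cells in the matrix results was not tested.

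**Figure D4:**
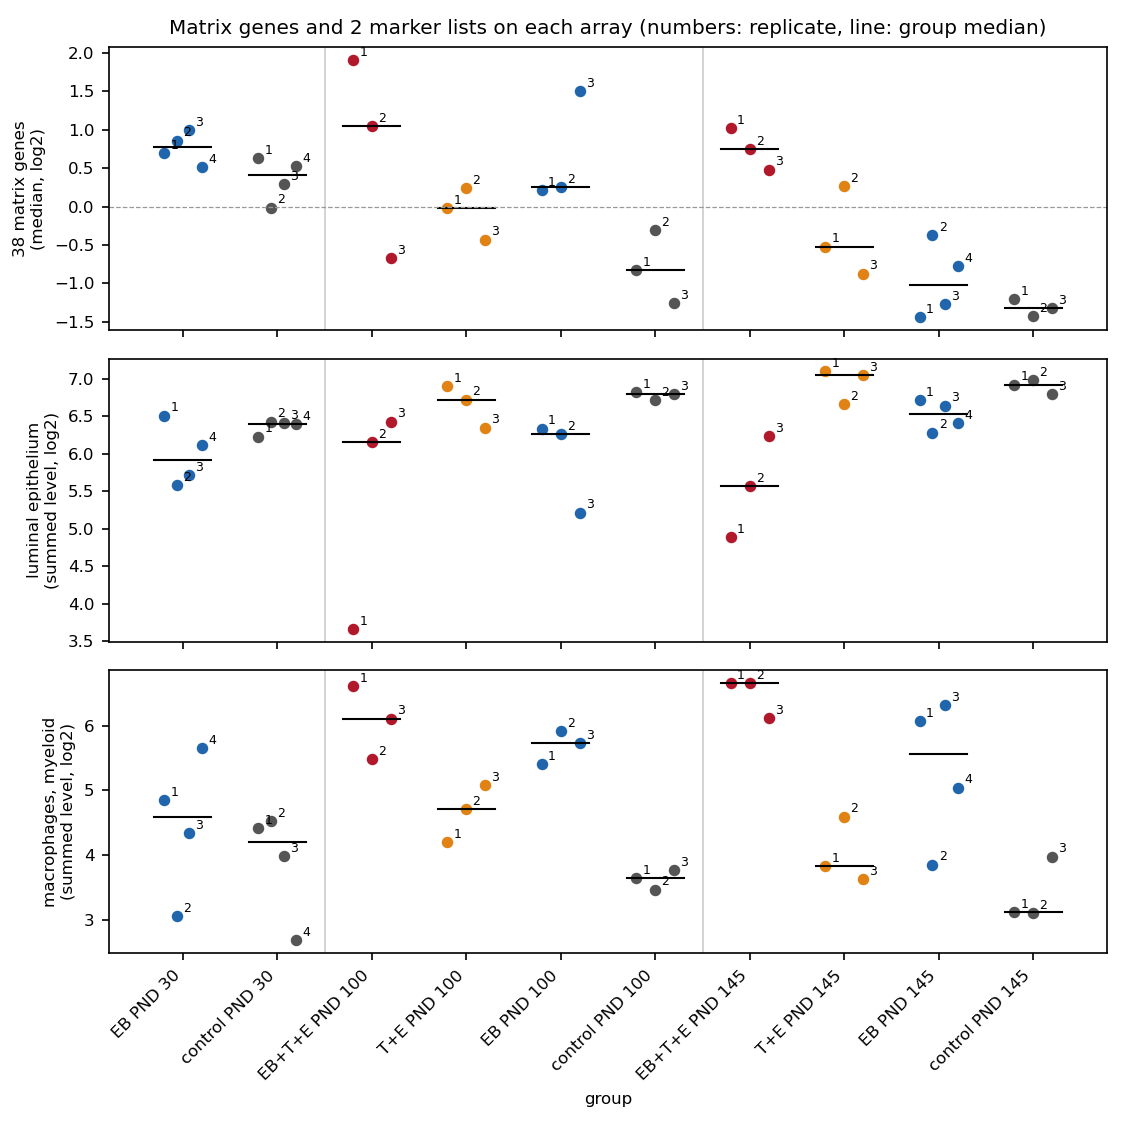
Median level of the 38 genes and summed level of the luminal epithelial and macrophage lists (log2) on each array by group, with replicate numbers as points and a line at the group median. EB+T+E replicate 3 at PND 100 has the lowest 38-gene median of its group (-0.67), against 1.91 and 1.05 in the other replicates.

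Adding EB to T+E was called for Postn and Timp1 at PND 100, with 0 genes lower and 3.98% of all genes called, 2.64% higher. Timp1 had levels of 5.45, 2.98 and 3.03 in EB+T+E prostates, against 0.97, 1.41 and 2.01 in T+E prostates (log2 ratio 2.36 ± 0.59, limma adjusted p = 0.0269). Postn had levels of -0.76, -1.35 and -1.51 in EB+T+E prostates, against -3.82, -1.99 and -3.83 in T+E prostates (log2 ratio 2.00 ± 0.58, adjusted p = 0.0475). Neither gene's groups overlapped. The median ratio of the 38 genes was 0.70, and 1.94 and 0.72 within the 2 slides that held both groups. Without EB+T+E replicate 3, 27 genes were called, without EB+T+E replicate 1 or T+E replicate 1 none was, and without any other single array 1 was. With only these 6 arrays in the fit none was called. Of 11 macrophage genes 8 rose as well, and of 9 genes of dividing cells 9 rose, and their part in the result was not tested.

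At PND 145, 8 of the 38 genes rose in EB+T+E prostates relative to T+E prostates and 0 fell, with 21.4% of all genes called and 9.7% called higher. They were Postn, Col3a1, Col5a2, Col6a2, Loxl2, Fn1, Thbs2 and Mmp2. Postn had levels of -1.07, -1.40 and -1.70 in EB+T+E prostates, against -4.73, -3.36 and -4.42 in T+E prostates (log2 ratio 2.78 ± 0.58, limma adjusted p = 0.00129). Col3a1 had levels of 4.17, 3.26 and 3.12 in EB+T+E prostates, against 1.16, 2.23 and 1.34 in T+E prostates (log2 ratio 1.94 ± 0.53, adjusted p = 0.00983). T+E replicate 2 was the T+E array nearest to the EB+T+E arrays in both genes.

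The other 6 ratios ran from 1.25 for Loxl2, a lysyl oxidase that also acts on basement membrane collagen, to 2.22 for Thbs2, whose groups overlapped. The groups did not overlap for 19 of the 38 genes and for 17.3% of all genes. The median of the 38 was 0.98, and 0.52 and 1.36 within the 2 slides that held both groups. The count was 13 without T+E replicate 2, 2 without T+E replicate 1 and 1 without T+E replicate 3. It was 11 without EB+T+E replicate 3, 2 without EB+T+E replicate 2 and 1 without EB+T+E replicate 1. Of the cell lists, 8 of 8 B and plasma cell genes, 11 of 11 T and natural killer cell genes and 10 of 11 macrophage genes rose, and 3 of 10 luminal genes fell. The summed level lay between 3.19 and 5.13 in EB+T+E prostates, against -3.61 to -2.90 in T+E prostates, for B and plasma cells, and between 6.12 and 6.66 in EB+T+E prostates, against 3.62 to 4.59 in T+E prostates, for macrophages. For luminal epithelium it lay between 4.88 and 6.24 in EB+T+E prostates, against 6.66 to 7.09 in T+E prostates. The part of these cells in the result was not tested.

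Adding T+E to EB was called for Timp1 alone at PND 100, with 1.7% of all genes called and 0.703% called higher. Timp1 had levels of 5.45, 2.98 and 3.03 in EB+T+E prostates, against 1.59, 0.50 and 1.30 in EB prostates, without overlap (log2 ratio 2.69 ± 0.59, limma adjusted p = 0.021). The other genes were split, with 21 of 38 ratios positive, a median of 0.18 that turned to -0.48 without EB+T+E replicate 1 and to -0.14 without EB replicate 2, and slide medians of 1.67, -0.52 and -1.09. Without EB+T+E replicate 3, 8 genes were called, and none was without EB+T+E replicate 1, EB replicate 2 or EB replicate 3, or with only these 6 arrays in the fit.

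At PND 145, 21 of the 38 genes rose in EB+T+E prostates relative to EB prostates and 0 fell, with 23% of all genes called and 10.6% called higher. Fn1 had levels of 2.34, 2.31 and 1.58 in EB+T+E prostates, against -2.19, -0.88, -1.82 and -0.95 in EB prostates (11.6-fold, log2 3.54 ± 0.58, limma adjusted p = 0.000144). Col3a1 had levels of 4.17, 3.26 and 3.12 in EB+T+E prostates, against 0.21, 1.29, 0.70 and 1.18 in EB prostates (log2 2.67 ± 0.49, adjusted p = 0.000415). Neither gene's groups came near each other. Mmp14, which was not called against controls, had 1.71, 1.50 and 0.66 in EB+T+E prostates, against -0.21, 0.43, -1.08 and -0.01 in EB prostates (log2 1.51 ± 0.47, adjusted p = 0.023).

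By role, 5 of 5 fibrillar collagens were called in that comparison but 1 of 4 proteoglycans and 1 of 3 TIMPs. Among the others called, Thbs2 gave 2.97 ± 0.62 (limma adjusted p = 0.00126), Vcan 2.39 ± 0.77 (0.0255), Loxl1 2.34 ± 0.48 (0.00105), Pdgfrb 2.30 ± 0.61 (0.00815), Mmp2 1.89 ± 0.37 (0.000751), Col6a1 2.28 ± 0.53 (0.00321) and Timp2 1.39 ± 0.34 (0.00446). Postn and Timp1 were not called. The groups did not overlap for 28 of the 38 genes, against 13.9% of all genes, and the slide medians were 2.24, 1.24 and 1.42. The count lay between 13, without EB+T+E replicate 1, and 23. Of the lists, 11 of 11 T and natural killer cell genes and 9 of 11 macrophage genes rose as well. So did 8 of 9 genes of dividing cells. The summed level lay between 3.19 and 5.13 in EB+T+E prostates, against -2.66 to -1.81 in EB prostates, for B and plasma cells. For luminal epithelium it lay between 4.88 and 6.24 in EB+T+E prostates, against 6.28 to 6.72 in EB prostates. The part of these cells in the result was not tested.

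Whether the joint treatment differed from the sum of its parts was tested as an interaction. It was called for 0 of the 38 genes at either age. At PND 100 limma called 0% of all genes, 5 members had an unadjusted p below 0.05, and the median was -0.62 with 7 of 38 positive. That median ran from -1.31 without EB+T+E replicate 1 to 0.12 without EB+T+E replicate 3 and was -0.16 without EB replicate 3. With any 1 array left out, 0 genes were called. At PND 145 it called 0.772% of all genes, 2 members had an unadjusted p below 0.05, and the median was 0.69 with 30 of 38 positive. Both members named by their p at PND 145, Loxl2 (1.22 ± 0.58) and Dcn (-0.87 ± 0.42), had adjusted p of 0.352 and 0.364 and opposite signs.

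The change with age was also read within each treatment. In EB prostates at PND 100 against PND 30, 1 gene rose and 5 fell, with 8.63% of all genes called, 5.52% higher and 3.12% lower. Fbln1 had levels of 0.79, 2.07 and 2.88 at PND 100, against -0.20, -0.56, -0.24 and -0.60 at PND 30, without overlap (log2 ratio 2.31 ± 0.53, limma adjusted p = 0.00873). Thy1, a cell surface glycoprotein, fell by 2.05 ± 0.49 (adjusted p = 0.0115), and Col5a2, Postn, Fap and Sparc fell by 1.36 to 1.88. The count was 2 without EB replicate 2 at PND 100, 5 without EB replicate 3 at PND 100 and between 4 and 6 without any other single array, and with only the EB arrays of the 2 ages in the fit none was called. All 9 genes of dividing cells fell, with a summed level between -1.24 and 0.83 at PND 100, against 2.05 to 2.97 at PND 30. The nerve and Schwann cell list lay between 1.13 and 2.42 at PND 100, against 1.93, 6.09, 5.73 and 4.84 in EB replicates 1 to 4 at PND 30. In the same order Thy1 had levels of -2.73, 0.40, -0.42 and -1.12 at PND 30, lowest where that list was lowest. B and plasma cell genes rose (6 of 8), with a summed level between -0.79 and 4.64 at PND 100, against -3.56 to -2.5 at PND 30, as did 9 of 11 T and natural killer cell genes and 8 of 11 macrophage genes. The part of these cells in the result was not tested.

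In EB prostates at PND 145 against PND 100, 0 genes rose and 9 fell, with 0.747% of all genes called and 0.561% called lower. Fn1 had levels of -2.19, -0.88, -1.82 and -0.95 at PND 145, against 0.36, 1.03 and 2.34 at PND 100 (log2 ratio -2.70 ± 0.58, limma adjusted p = 0.0287). Col1a1 had levels of 0.08, 1.20, -0.05 and 0.91 at PND 145, against 3.64, 2.90 and 3.42 at PND 100 (log2 ratio -2.79 ± 0.42, adjusted p = 0.00511). The groups were separate for both genes and for 21 of the 38, against 4.99% of all genes. The others that fell were Col3a1, Eln, Fbln1, Fbn1 (fibrillin-1, the core of elastic microfibrils), Pdgfrb, Loxl1 and Mmp2. The count was 0 without EB replicate 3 at PND 100, 6 without replicate 2 and 14 without replicate 1 at that age. It was 1, 11, 2 and 5 without EB replicates 1, 2, 3 and 4 at PND 145, and 0 with only these 7 arrays in the fit. Of the immune lists, 4 of 11 macrophage genes, 2 of 11 T and natural killer cell genes and 1 of 8 B and plasma cell genes fell as well. The summed level lay between -2.66 and -1.81 at PND 145, against -0.79 to 4.64 at PND 100, for B and plasma cells, and between -0.30 and 0.17 at PND 145, against 0.08 to 3.16 at PND 100, for T and natural killer cells. For macrophages it lay between 3.85 and 6.32 at PND 145, against 5.41 to 5.91 at PND 100. Endothelial genes, of which none was called, lay between 1.16 and 2.30 at PND 145, against 2.10 to 3.98 at PND 100. The part of these cells in the fall was not tested.

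No member was called between PND 145 and PND 100 within T+E or EB+T+E prostates with all arrays. T+E gave 0 calls and 2 unadjusted p below 0.05 (limma, 0.0432% of all genes called, median log2 ratio -0.29). EB+T+E gave 0 calls and 2 unadjusted p below 0.05 (3.47% of all genes called, median -0.04), and 4 calls without EB+T+E replicate 3 at PND 100. That median ran from -0.71 without EB+T+E replicate 3 at PND 100 to 0.58 without replicate 1 of that group.

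**Figure D5:**
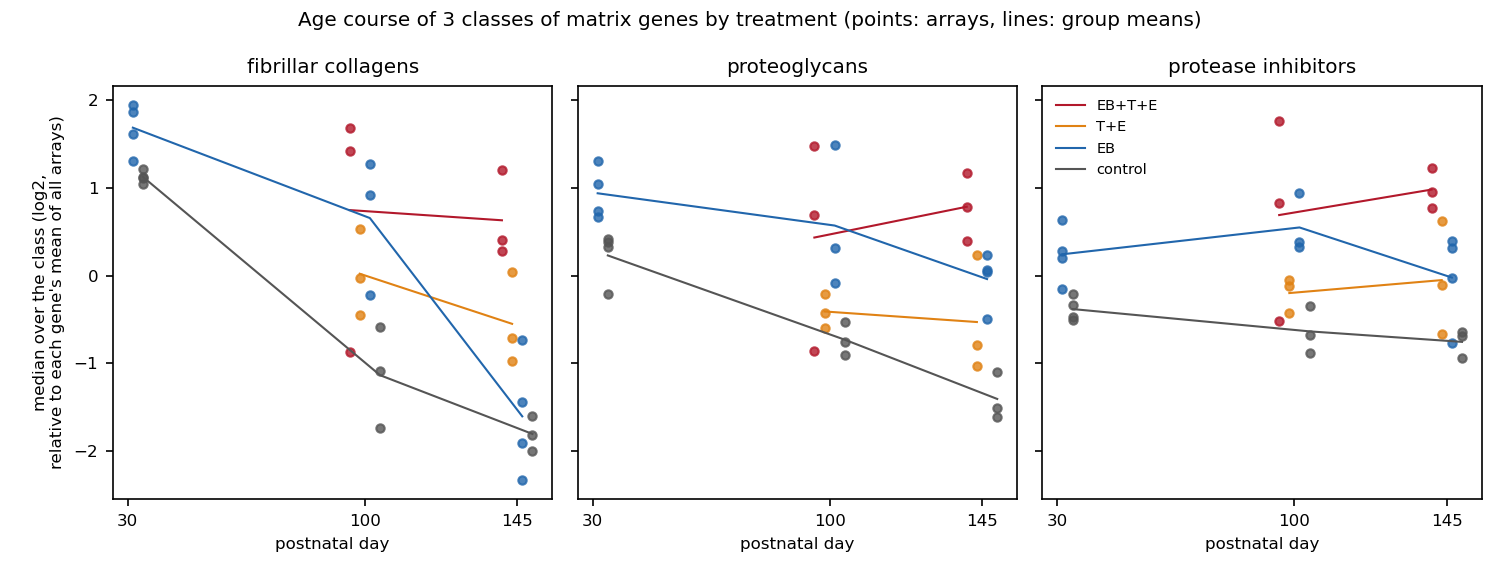
Median level (log2) of the fibrillar collagen, proteoglycan and TIMP genes on each array against postnatal day, with 1 point per array and points offset sideways by treatment. Fibrillar collagens are lower in adult controls than at PND 30, and in EB+T+E prostates at PND 145 they stand above the controls of that age.

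Related matrix genes outside the 38 were read from lists of named pathways, and at PND 145 their counts stand beside 14.8% of all genes called higher and 20.6% called lower in EB+T+E prostates against controls. In EB+T+E prostates against controls at PND 145, 13 of 18 other basement membrane genes rose and 0 fell, among them Lama5 (log2 ratio 1.14 ± 0.28, limma adjusted p = 0.00278), a laminin chain. Of 19 other proteoglycan and microfibril genes, 11 rose and 0 fell, and Mfap4 gave 2.06 ± 0.33 (adjusted p = 4.57e-05). Of 15 other metalloproteinases and inhibitors, 7 rose and 0 fell, with Mmp8, the collagenase of neutrophils, at 3.64 ± 0.74 (adjusted p = 0.000612). Matrix receptors were called in both directions, with 5 of 15 higher and 1 lower, and Cd44, the hyaluronan receptor, gave 2.19 ± 0.56 (adjusted p = 0.00386).

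Of 17 collagen processing genes, 9 rose and 3 fell at PND 145. Adamts14, which trims procollagen, gave 4.49 ± 0.77 (limma adjusted p = 9.86e-05), and P4ha1, a chain of the collagen prolyl hydroxylase, gave 1.86 ± 0.36 (0.00032). Of 20 genes of transforming growth factor beta signalling, 7 rose and 1 fell. The ligand Tgfb1 rose by 2.78 ± 0.54 (adjusted p = 0.000385) and the receptor Tgfbr1 by 1.17 ± 0.20 (0.000109), and the decoy receptor Bambi fell by 1.82 ± 0.36 (0.000419). At PND 100 the pattern of that list differed in its counts, with 1 higher and 3 lower of 20, beside 5.4% of all genes called higher and 7.22% called lower, and Bambi fell by 2.25 ± 0.36 (adjusted p = 0.000732). P4ha1 rose there as well, by 2.24 ± 0.36 (adjusted p = 0.000732), and 5 of 17 processing genes rose with 0 lower. Whether the lists differed between the 2 ages was not tested.

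EB alone was read over the same lists. At PND 100, where 1.81% of all genes were called higher, 1 of 20 signalling genes, 1 of 17 processing genes, 1 of 18 basement membrane genes, 1 of 15 other metalloproteinases and inhibitors, 2 of 19 other proteoglycan and microfibril genes and 0 of 15 matrix receptors rose in EB prostates relative to controls. The metalloproteinase was Mmp8. At PND 145, Efemp1, an elastic fibre glycoprotein, rose by 1.96 ± 0.37 (limma adjusted p = 0.0174), and Lamb1, a laminin chain, fell by 2.34 ± 0.45 (0.0181).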

How the data were processed

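Total prostate RNA was labelled with Cy3 and hybridised to 33 single-colour arrays, 1 per sample. Per the file headers, intensity values were extracted with Agilent Feature Extraction 12.0.0.7 (protocol GE1_1200_Jun14, array design 074036, annotation on rn4). The deposited intensity of each spot had its background subtracted within the array and was not scaled between arrays. A second deposited table of the authors holds the same linear intensity scaled to an almost equal 75th percentile (619.357 to 619.517), with column medians of 30.8 to 49.9. It was not centred, and served as an alternative. Outlier-marked spots (413 to 969 per array) were left out, repeated spots were averaged to 45598 probes, and log2 signals were centred on each array's 75th percentile, a step not recorded by the authors.

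Probes entered where at least 3 of the 33 arrays had them well above background, and the brightest passing probe stood for its gene, which left 23172 genes. limma 3.58.1 (R 4.3.3; Python 3.11.15 for summaries) fitted the 10 groups together (lmFit, eBayes with trend and robust), and p-values were adjusted by Benjamini-Hochberg over the 23172 genes within each of 21 comparisons. The fit was tested on simulated data. The alternatives tried were quantile scaling, normexp (offset 50) for the background, no brightness filter, a filter of 17 arrays, a slide or replicate block, only the groups compared, the authors' table, the mean of all probes, and leaving out each array.

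The arrays sat on 5 slides, of which the fifth held only EB replicate 4 at PND 145. The number of arrays limits the precision. The labels give 3 to 4 litters per group but no litter for a sample, so the p-values reflect spread among the sampled prostates, part of which may be technical. Same-numbered samples of different groups did not deviate together (median correlation 0.054 over 138 pairs, -0.469 to 0.459, against -0.006 over 351 other pairs), so the numbers were not taken to pair samples.

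The 38 genes, pathway lists and cell marker lists were chosen with earlier results of these data known. Every called gene of a comparison was named, or, where over 8 were called, the gene with the largest ratio of each role class, with the gene of the smallest p of a class named in addition. Pathway genes were named where called, up to 3 per list.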

Additional observations from a re-analysis of the deposited data

Results flagged for a closer look

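In groups of 4 arrays, 114 combinations of gene and group were examined for a single array far from the other 3 (Dixon's ratio), and 5 were found, about as many as the 1 in 20 that chance gives. Lumican (Lum) had a level of -3.39 in control replicate 2 at PND 30, against -0.68 to -0.36 in the other controls. The same array held the lowest Col12a1 level, -2.71, against -1.98 to -1.86. Control replicate 1 at PND 30 had the highest Fbn1 level, -1.56, against -1.92 to -1.88, and the highest Timp2 level, 3.25, against 2.95 to 2.98. Col6a1 had a level of 0.38 in EB replicate 4 at PND 30, against 1.08 to 1.2 in the other EB arrays. All 5 were at PND 30, where none of the 38 genes was called between EB and control.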

How the results depend on the processing

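No log2 ratio of a called gene changed sign under any alternative run, over 110 ratios. The calls were less stable. With only the groups compared 62 of the 110 stayed called and 48 did not. With normexp 23 calls were lost, and with the filter of 17 arrays 1 was. In the runs with 1 array left out, a call was kept 489 times and lost 216 times. The authors' table, the filter of 17 arrays and the mean of all probes kept the count of called members within 1.5 times in all 21 comparisons. The authors' table had a log correlation of at least 0.999982 with the values used here on every array. Among the members the filter of 17 arrays removed only Thbs1, whose probe was well above background on 15 arrays. Neither alternative was therefore an independent check. For EB against control at PND 100 (6 called), normexp gave 2, no brightness filter 3, the slide block 12 and only the groups compared 0. At PND 145 (1 called), normexp, the slide block and only the groups compared gave 0. For EB+T+E at PND 100, only the groups compared gave 0 against control (19 called) and 0 against EB (1 called). Set against T+E prostates at PND 100 (2 called), normexp, quantile scaling and no brightness filter gave 1 and only the groups compared 0, and at PND 145 (8 called) quantile scaling gave 13. With only the groups compared, controls at PND 100 against PND 30 (8 called) gave 17, EB at PND 100 against PND 30 (6 called) gave 0 and EB at PND 145 against PND 100 (9 called) gave 0, where normexp gave 4. The causes were not tested.

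The replicate block, which treats same-numbered samples as pairs, gave 1 in place of 2 for EB+T+E over T+E prostates at PND 100 and 5 in place of 9 for EB at PND 145 against PND 100. It moved no other count of calls beyond 1.5 times, and 28 genes against 29 were called for EB+T+E over control prostates at PND 145.

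Leaving out 1 array gave 0 to 11 called genes for EB against control at PND 100 and 0 to 2 at PND 145. EB+T+E against control gave 4 to 29 at PND 100. EB+T+E over T+E gave 0 to 27 at PND 100 and 1 to 13 at PND 145. EB+T+E against EB gave 0 to 8 at PND 100 and 13 to 23 at PND 145. Controls at PND 100 against PND 30 gave 5 to 6, EB at PND 100 against PND 30 gave 2 to 6, EB at PND 145 against PND 100 gave 0 to 14 and EB+T+E at PND 145 against PND 100 gave 0 to 4. Signal limits Thbs1, Tnc and Mmp3, which were not well above background on every array.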

Other observations

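Nerve and Schwann cell genes and adipocyte genes were also read. In EB+T+E prostates against controls at PND 145, 5 of 10 nerve and Schwann cell genes and 1 of 8 adipocyte genes rose, 1 of 6 basal epithelial genes fell, and 3 of 6 measured seminal vesicle genes fell (limma), where 14.8% of all genes were called higher and 20.6% lower. At PND 100 in the same comparison, 0 genes of the first 3 lists were called and 2 of 6 seminal vesicle genes fell, with 7.22% of all genes called lower. EB against control at PND 145 called 2 of 6 seminal vesicle genes lower (0.38% of all genes) and called 0 genes of the other 3 lists. The summed level of the basal epithelial list lay between 2.47 and 2.86 in EB+T+E prostates at PND 145, against 3.21 to 4.05 in controls.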
